A study of Mus musculus with 2 samples.

Results

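Of the 7841 chromatin domain boundaries listed for mouse immediate neuronal precursors, 715 (9.12%) lay at several gene starts. A boundary was placed in this group when its 5 kb interval, extended by 10 kb on each side, held 2 or more transcription start sites of protein-coding genes in GENCODE M21 (GRCm38), each start being the 5′ end of the gene record. Exactly 2 starts were found at 586 of them, 3 at 99, 4 at 22 and 5 or more at 8. Of the remaining boundaries, 1972 had exactly 1 start in the 25 kb window and 5154 had 0. The 715 windows held the starts of 1598 genes, 7.34% of the 21755 protein-coding genes considered, and 0 genes were shared between windows.

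The cells were untreated primary cells, sorted by fluorescence from olfactory epithelium of mice with an Ngn1-GFP reporter, and the animals were pups of both sexes of the strain FVB/NTac. They were fixed in 1% formaldehyde and their chromosome contacts were read by in situ Hi-C with DpnII, in 2 biological replicates of 2200000 and 2100000 cells that form a single group. Contacts of both replicates were combined before boundaries were called, so no boundary has a replicate error, and the number of contacts and of animals behind the list is unknown here. Expression was not measured, so the sorted cells could not be checked against marker genes.

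A boundary is a position across which DNA on one side contacts DNA on the other less often than positions within a domain contact each other. Cohesin halted at CTCF sites is known to form many of them, and active promoters, above all those of housekeeping genes, are known to lie at many others. Pairs of genes whose starts lie back to back often share one nucleosome-free, CpG-rich promoter, so that transcription leaves the site in both directions.

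The sequence between the 5′ ends of such back-to-back genes is printed here, read on the plus strand of GRCm38.p6. Whether the genes of a printed pair share a promoter was not tested. In each line the gene named first is transcribed to the left and the other to the right. The 6 printed are those with the highest scores among boundaries at exactly 2 divergent starts placed 50 to 300 bases apart. Capitals mark letters of the promoter motifs searched, listed with the promoter results.

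Polr3a and Rps24, chr14:24487059-24487124: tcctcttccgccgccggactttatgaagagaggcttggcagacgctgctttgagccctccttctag
Zfp169 and A830005F24Rik, chr13:48513452-48513569: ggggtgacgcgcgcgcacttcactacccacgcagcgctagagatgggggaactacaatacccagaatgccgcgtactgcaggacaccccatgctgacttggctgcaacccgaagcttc
Hepacam2 and Vps50, chr6:3498299-3498381: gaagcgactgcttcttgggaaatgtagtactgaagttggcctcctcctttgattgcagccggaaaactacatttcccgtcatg
Ptcd2 and Mrps27, chr13:99344706-99344785: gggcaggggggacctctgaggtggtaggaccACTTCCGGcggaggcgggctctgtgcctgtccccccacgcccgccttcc
Rer1 and Morn1, chr4:155086383-155086576: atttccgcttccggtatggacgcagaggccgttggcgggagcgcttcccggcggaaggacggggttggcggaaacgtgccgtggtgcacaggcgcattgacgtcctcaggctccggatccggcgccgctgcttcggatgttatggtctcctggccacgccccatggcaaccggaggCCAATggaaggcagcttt
Cetn2 and Nsdhl, chrX:72918412-72918556: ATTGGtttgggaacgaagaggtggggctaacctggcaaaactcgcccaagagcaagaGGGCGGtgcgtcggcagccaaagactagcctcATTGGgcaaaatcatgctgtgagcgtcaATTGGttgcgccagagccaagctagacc

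These stretches held between 3 CpG dinucleotides (Hepacam2 and Vps50) and 21 (Rer1 and Morn1), and their GC content ran from 48.2% to 73.8%. The stretches of Polr3a with Rps24, of Zfp169 with A830005F24Rik and of Hepacam2 with Vps50 held none of the motifs searched. The pair of Ptcd2 and Mrps27, both genes of mitochondrial gene expression, held an ETS match on the minus strand. Rer1, which encodes a retrieval receptor of the early secretory pathway, and Morn1 had 1 CCAAT match between them. Cetn2, a centrin gene, and Nsdhl, a gene of cholesterol synthesis, had 3 CCAAT matches and 1 GC box. In 5 of the 6 cases both starts lay inside the 5 kb boundary interval, the farthest, that of Mrps27, 2.29 kb from its centre. The start of Zfp169 was 10.95 kb from the centre. The boundaries at these pairs scored 2.32, 2.05, 1.92, 1.81, 1.46 and 1.42, in the order printed.

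The score is the authors' own value for each boundary, and a higher score is taken to mark a deeper loss of contacts. From the values, their strong class begins at 0.5 and the list itself at 0.2. Boundaries at several gene starts had a median score of 0.715 (quartiles 0.449 and 1.05, n = 715), against 0.513 for all other boundaries (0.302 and 0.880, n = 7126). The highest score of the whole list, 3.78, belonged to one of them, and their lowest was 0.2003. Of the 715, 494 were strong, 69.1% (95% Wilson interval 65.6 to 72.4%), against a background of 52.8% over all boundaries and 51.1% (49.96 to 52.3%) over the others. The intervals cover counting error only and take boundaries as independent.

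**Figure D1:**
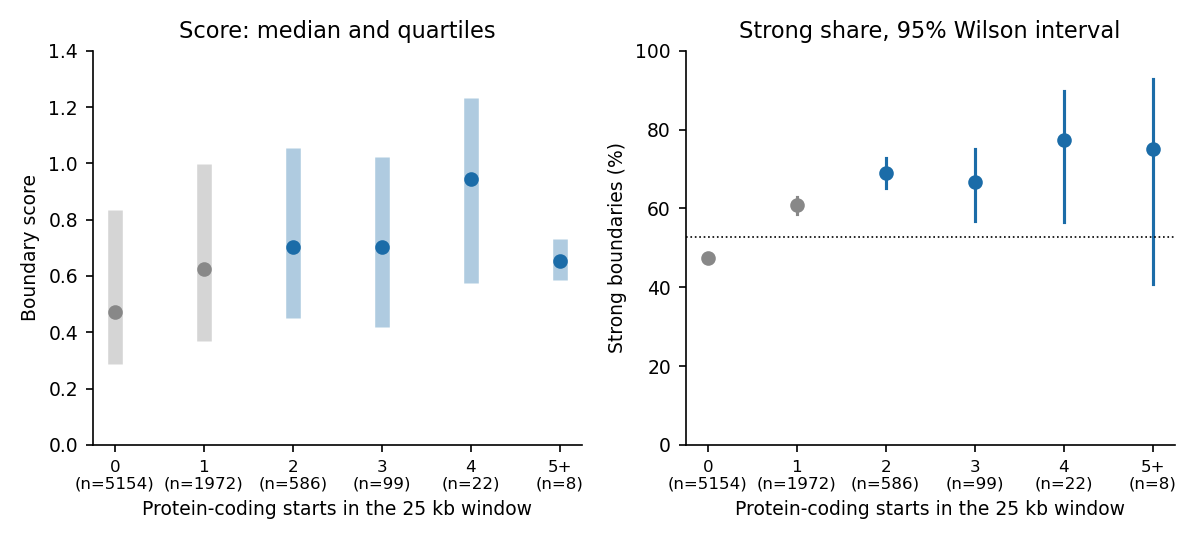
Left, median boundary score (points) with quartiles (bars) for boundaries with 0, 1, 2, 3, 4 and 5 or more protein-coding starts in the 25 kb window. Right, the percentage of strong boundaries with 95% Wilson intervals, the dotted line being the 52.8% of all boundaries; the step from 0 starts (47.4%) to 1 (60.9%) and 2 (69.1%) is seen, and the intervals from 2 starts upward overlap.

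Most of the rise in score came between 0 and 2 starts. The median was 0.472 with 0 starts, 0.624 with 1, 0.703 with 2 and 0.702 with 3. It was 0.945 for the 22 boundaries with 4 starts and 0.653 for the 8 with 5 or more. A linear fit over all 7841 boundaries, with a term for each chromosome and standard errors clustered over the 20 chromosomes, put log2 score 0.30 higher at several starts than elsewhere (95% interval 0.23 to 0.37), a ratio of 1.23. The strong share was higher by 16.6 percentage points (13.5 to 19.6). Against boundaries with exactly 1 start, log2 score was higher by 0.12 (0.055 to 0.19) and the strong share by 7.99 points (5.02 to 10.96). Boundaries with 3 or more starts did not differ detectably from those with 2 (log2 difference -0.0046, interval -0.22 to 0.21).

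GC content and the density of surrounding genes moved with this difference. The 25 kb windows of boundaries at several starts had a median GC content of 45.9%, against 42.4% for the others, and 17 further starts lay within 500 kb of them (median), against 6 for the others. With GC content and CTCF core matches as covariates, the log2 score difference was 0.15 (0.087 to 0.21). With the number of surrounding starts as a covariate it was 0.092 (0.026 to 0.16), and with all 3 it was 0.076 (0.010 to 0.14). The strong share then differed by 8.56, 4.97 and 4.19 points, each interval lying above 0. When boundaries were cut into 4 equal groups by GC content, the median scores in the group between 39.8 and 42.7% were 0.718 at several starts (n = 122) and 0.534 elsewhere. In the group richest in GC, which held 359 of the 715, they were 0.724 and 0.694.

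Every chromosome showed the same direction. On 20 of 20 chromosomes the mean log2 score was higher at several starts, by 0.32 ± 0.14 (SD over chromosomes), from 0.12 on chromosome 8 to 0.65 on chromosome 6. The strong share was higher on all 20, by 17.6 ± 7.17 points. Chromosome 11, which is rich in genes, had the largest share of its boundaries at several starts, 17.2% (77 of 447), and chromosome X the smallest, 2.78% (12 of 431). The 12 on chromosome X had a median score of 0.4999, below that of each autosome, and the other boundaries of that chromosome had 0.359.

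**Figure D2:**
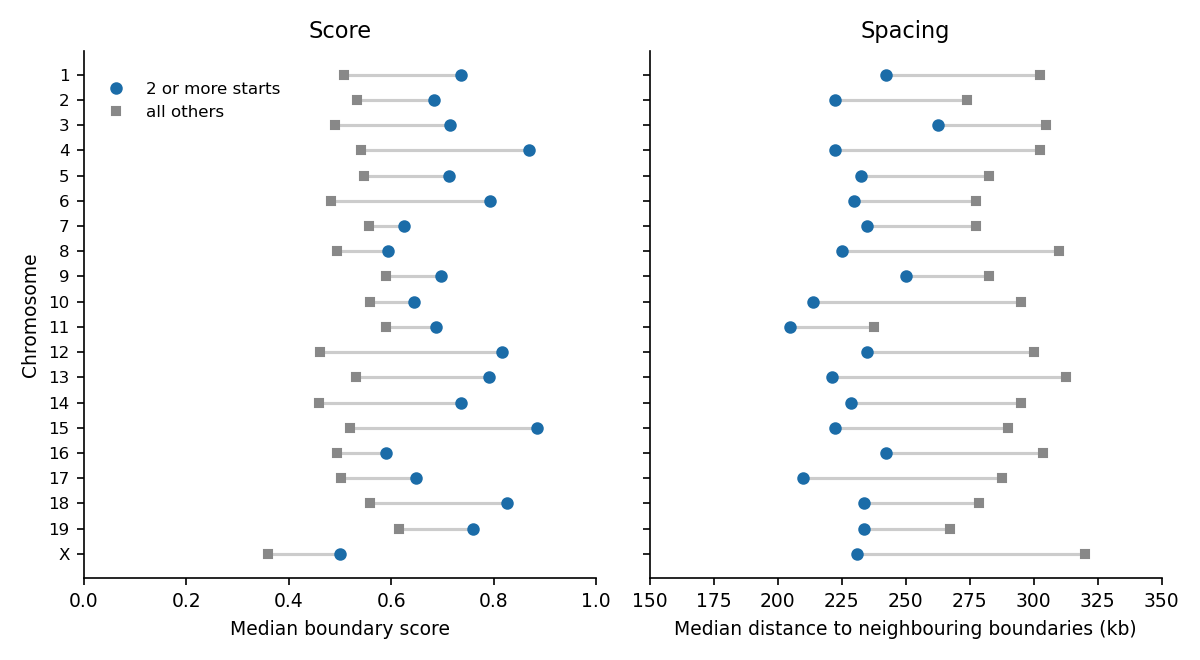
Median boundary score (left, the authors' score) and median distance to the neighbouring boundaries in kb (right, an axis that starts at 150 kb) for each of the 20 chromosomes, circles for boundaries at 2 or more starts and squares for all others. On each chromosome the circle lies at a higher score and a shorter distance than the square.

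Boundaries at several gene starts stood closer to their neighbours. The mean distance to the boundaries on both sides had a median of 227.5 kb (quartiles 187.5 and 290 kb), against 290 kb (218 and 400 kb) for the others, and the nearer neighbour was 175 kb away against 205 kb. On the log2 scale the difference was -0.31 (-0.36 to -0.26), a ratio of 0.808, and it had this direction on 20 of 20 chromosomes. Against boundaries with 1 start, whose median distance was 257.5 kb, it was -0.14 (-0.18 to -0.095). In 35.9% of cases (257 of 715) at least one neighbouring boundary also lay at several starts, against 14.7% (1044 of 7126) for the others. Spacing moved with the surrounding gene density more than score did. With the number of surrounding starts as a covariate the log2 difference was -0.050 (-0.097 to -0.0023). With GC content and CTCF core matches added it was -0.020 (-0.065 to 0.026), which no longer lay apart from 0.

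The same positions were then read from the side of the genome. All 5 kb bins with at least 50% assembled sequence were sorted by the number of starts in the bin and the 10 kb on each side, and the share of bins listed as boundaries was counted. Neighbouring bins share starts, so these shares are a description. Of 17646 bins with 2 or more starts, 715 (4.05%) were boundaries, against a background of 1.53% over all 511892 bins. The share was 1.21% with 0 starts, 2.86% with 1, 4.10% with 2, 3.94% with 3, 3.64% with 4 and 3.45% with 5 or more. Like the score, it did not climb beyond 2 starts. Over chromosomes, bins with 2 or more starts were boundaries 2.86 ± 0.586 times (SD, n = 20) as often as other bins, from 1.88 times on chromosome X to 3.79 times.

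The share differed with the place of the starts. When both starts lay within the bin itself, 10.36% of bins (117 of 1129, Wilson 8.72 to 12.3%) were boundaries. With 1 of 2 starts in the bin the share was 4.89%, and with neither it was 3.12%. With bins cut into 4 equal groups by GC content, the share was higher with 2 or more starts than with 1 in all 4. It was 1.91% against 1.35% in the group poorest in GC, where the intervals overlap, and 4.13% against 3.06% in the richest.

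**Figure D3:**
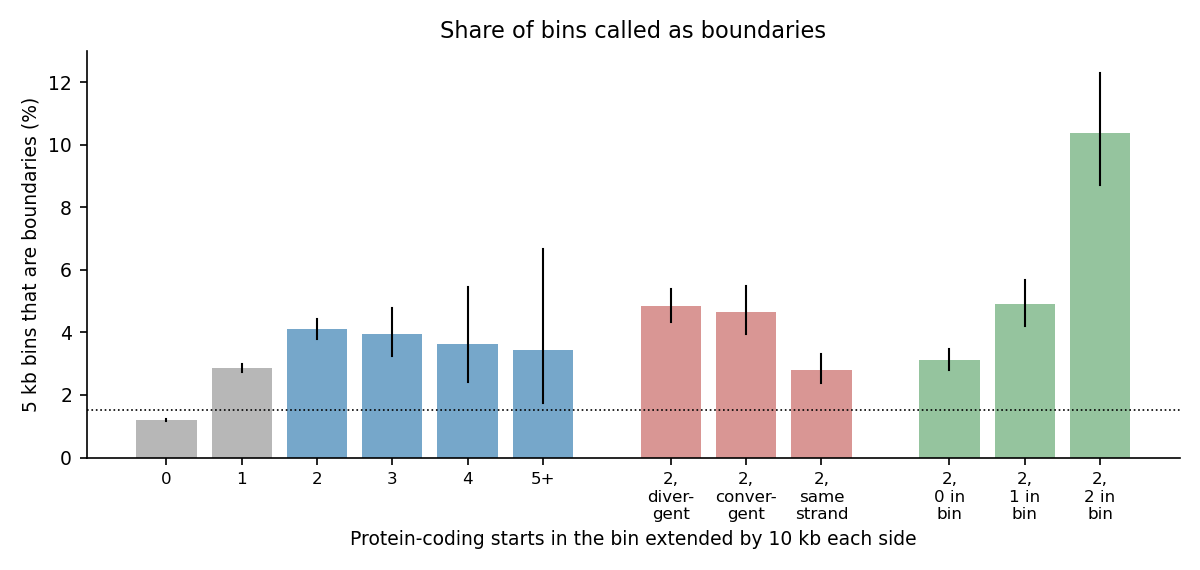
Percentage of 5 kb bins that are boundaries, with 95% Wilson intervals, by the number of protein-coding starts in the bin extended by 10 kb on each side (left), and for exactly 2 starts by orientation (middle) and by how many lie in the bin itself (right). The dotted line is the 1.53% of all bins; same-strand pairs (2.81%) lie below divergent pairs (4.84%), and bins that hold both starts reach 10.36%.

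Starts crowded towards the centre of the boundary. Of the 1598 starts, 509 (31.9%) lay in the 5 kb interval 639 (39.99%) within 5 kb outside it and 450 (28.2%) between 5 and 10 kb outside. At least 1 start lay in the interval at 348 boundaries (48.7%), and 2 or more did at 151 (21.1%). Starts outside the interval were transcribed away from it more often than towards it, in 634 of 1089 cases (58.2%, Wilson 55.3 to 61.1%). At boundaries with 1 start the share was 54.4% (51.8 to 57.01%), and the intervals overlap. The same share over all bins with 2 or more starts was not counted. Among all bins with exactly 2 starts, divergent pairs (45.4%) also outnumbered convergent ones (19.98%). The orientation of a pair does not give its direction from the interval, so whether outward reading is particular to boundaries was not tested. Of the intervals, 79.4% overlapped an exon of a protein-coding gene, 7.55% lay in an intron and 13.01% lay outside such genes. At boundaries with 1 start these shares were 54.3, 10.45 and 35.2%, and for all other boundaries 29.2, 15.4 and 55.4%. The choice by starts brings exons into the window, so the order of these shares follows from it. At the edge of the window, the 112 boundaries whose second nearest start was 8 to 10 kb outside the interval had a median score of 0.838, and the 105 with it at 6 to 8 kb had 0.653. Just outside the window, the 82 with it at 10 to 12 kb had 0.659 and the 106 with it at 12 to 14 kb had 0.701, so the medians followed no order across the edge.

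**Figure D4:**
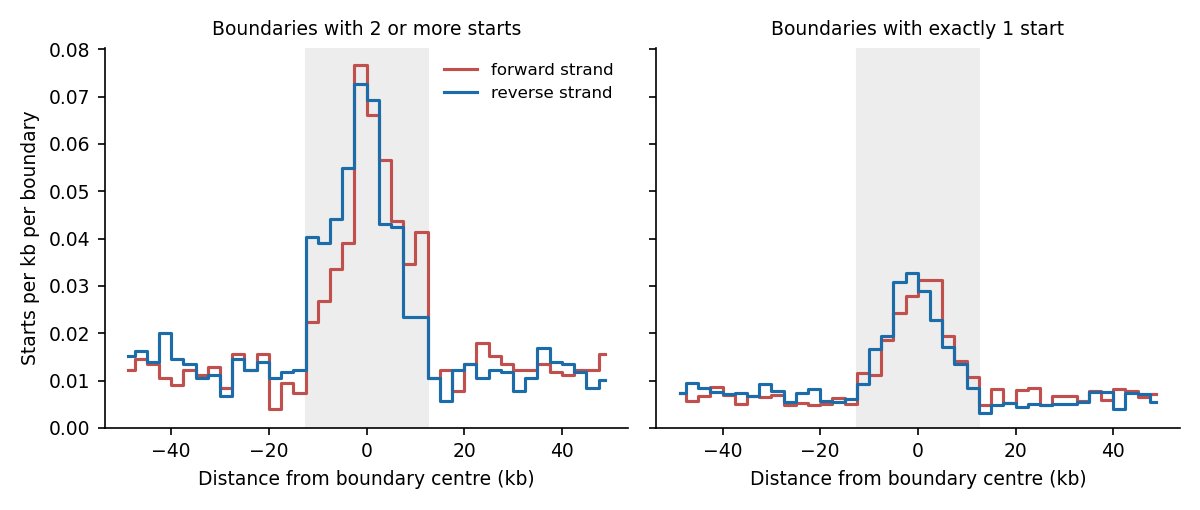
Protein-coding starts per kb and boundary against distance from the boundary centre in kb, for boundaries at 2 or more starts (left, n = 715) and at exactly 1 (right, n = 1972), with forward-strand and reverse-strand starts drawn apart and the 25 kb window shaded. The window chose both sets, so the height inside it is a consequence of the choice; within it the left panel is highest over the central 5 kb, and reverse-strand starts lead on the left flank and forward-strand starts on the right.

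Orientation was read for the 586 boundaries with exactly 2 starts. The pair was divergent (back to back) at 314 (53.6%, Wilson 49.5 to 57.6%), convergent at 133 (22.7%, 19.5 to 26.3%) and on the same strand at 139 (23.7%, 20.5 to 27.3%). Among all 7817 neighbouring starts of the genome within 25 kb of each other, 33.4% were divergent, 18.9% convergent and 47.7% on the same strand. All 14295 bins with exactly 2 starts gave 45.4, 19.98 and 34.7%, so that divergent pairs were more frequent and same-strand pairs less frequent at boundaries than in either set. Seen from the bins, 4.84% of those with divergent pairs were boundaries, 4.66% with convergent pairs and 2.81% with same-strand pairs. Divergent pairs exceeded same-strand pairs on 20 of 20 chromosomes and convergent pairs did so on 16. Divergent pairs exceeded convergent ones on 11. The bin shares by orientation are given again, split by promoter type, with the promoter results.

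Most of the convergent pairs were overlapping genes, not genes that end towards each other. At 118 of the 133 the gene bodies overlapped, and at 94 the starts lay within 1 kb. Mtbp and Mrpl13, a mitochondrial ribosomal protein gene, are a pair of this kind (score 0.988). The median distance between convergent starts was 0.456 kb, between divergent starts 1.91 kb and between same-strand starts 9.71 kb. Among bins whose 2 starts lay within 1 kb, 5.66% with divergent and 5.82% with convergent pairs were boundaries, against 1.56% (7 of 449) with same-strand pairs. Over 1 kb apart the shares were 4.26% (Wilson 3.67 to 4.95%), 3.14% (2.305 to 4.26%) and 2.93% (2.48 to 3.46%). At these distances the intervals of convergent and same-strand pairs overlap.

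Some of the pairs shared a name stem, taken as the leading letters of the symbol, as genes of a tandem family often do. The stem also matches pairs of records of one symbol, such as Atp5o, and other like-named genes, so the counts are not of tandem families alone. Names with the same stem were found for 24 of the 139 same-strand pairs, 11 of the 314 divergent and 4 of the 133 convergent. Over the 586 this was 6.66%, against 18.6% of the genome's neighbouring pairs. With Olfr, Vmn, Hist, Pcdh, Krt, Hox and Zfp genes left out, the bin shares were 5.12% for divergent, 4.86% for convergent and 3.11% for same-strand pairs, in the same order as with them.

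Score separated the orientations less firmly than frequency did. Median scores were 0.732 at divergent pairs (71.3% strong), 0.755 at convergent pairs (71.4%) and 0.601 at same-strand pairs (61.9%). The log2 score was higher at divergent than at same-strand pairs by 0.21 (0.035 to 0.38). This call ended when tandem families were left out (0.12, -0.043 to 0.28) and when the window was set to 5 kb (0.045) or 20 kb (0.054), and its sign turned with 0 kb (-0.076, interval -0.73 to 0.58). Convergent pairs were 0.17 above same-strand pairs (-0.17 to 0.50) and 0.017 below divergent pairs (-0.22 to 0.26 for divergent minus convergent), neither of which lay apart from 0. Spacing did not separate the orientations either, with medians of 229, 240 and 235 kb for divergent, convergent and same-strand pairs.

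The highest score, 3.78, lay between divergent starts 1.54 and 2.39 kb outside the interval at chr11:3195001-3200000. They are those of the centrosome gene Sfi1 and of Eif4enif1, which encodes a binding protein of the cap-binding factor eIF4E. This boundary is the first listed on chromosome 11, with a neighbour on the right only, 140 kb away. Whether its place at the chromosome end affects its score was not tested. Among boundaries at several starts, the next highest score was 2.46, at chr5:144760001-144765000, which ranked 25 in the whole list. This boundary had the start of Tmem130 inside the interval and that of Trrap, a scaffold of histone acetyltransferase complexes, 2.73 kb outside. Bcl6, which encodes a transcriptional repressor, and the gene model Gm37419 formed a convergent pair at 2.43, in an intron. Pate2 and the centriole gene Hyls1 started 0.114 kb apart inside the interval at chr9:35570001-35575000 (2.36). The run of olfactory receptor genes Olfr543, Olfr544 and Olfr545, all on the reverse strand, lay at 2.35 on chromosome 7. Polr3a, which encodes the largest subunit of RNA polymerase III, and Rps24, a small-subunit ribosomal protein gene, lay at 2.32 with starts 67 bases apart. Rps23 with Atp6ap1l (2.22) and the trio of Ppp1r35, Mepce and Zcwpw1 (2.15) came next, Mepce being the capping enzyme of 7SK RNA. The strongest same-strand pairs were the mitochondrial rRNA methyltransferase gene Mrm1 with Dhrs11 (2.02) and Rsrp1 with the splicing factor gene Syf2 (1.98).

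The 8 windows with 5 or more starts ranged from weak to strong, and 6 were strong. The window with the most starts, 6, held Moap1, Tmem251, Gm28051, Gon7, Ubr7 and Gm20604 and scored 0.662. The other 7 held 5 starts and scored 0.908, 0.754, 0.722, 0.643, 0.635, 0.442 and 0.219. The highest of them held Oxld1, Ccdc137, Arl16 and Hgs, an ESCRT gene with a pair of records that start at the same base, and the next Nek8, Tlcd1, Rpl23a, Rab34 and Proca1. The lowest, with Ring1, H2-Ke6, Slc39a7, Rxrb and Col11a2, was weak. At the weak end, scores of 0.2003 to 0.2009 were held by Ttc3 with Pigp, a gene of GPI anchor synthesis, by Gm9925 with Mapk4 and by Olfr1307 with Olfr1308. Of the 784 strongest boundaries of the list, 90 (11.5%) were at several starts, of the 784 that follow 117 (14.9%), and of the 785 weakest 41 (5.22%).

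Genes of protein synthesis and respiration were the fullest of the gene lists at these boundaries. The lists were made by symbol, and for all protein-coding genes the share at several-start boundaries was 7.34%. Of 81 cytosolic ribosomal protein genes, 24 (29.6%, Wilson 20.8 to 40.3%) started there, and 10 (12.3%) at boundaries with 1 start, where 9.07% of all genes lay. Of 94 respiratory chain and ATP synthase genes, taken as the symbols Nduf (with assembly factors), Cox4 to Cox8, Uqcr, Sdha to Sdhd and Atp5, 26 did (27.7%, 19.6 to 37.4%), and 10 at boundaries with 1 start. The median score over all genes at several-start boundaries was 0.718, over the ribosomal protein genes 0.867 and over the respiratory genes 0.982. Of the ribosomal protein genes 21 of 24 and of the respiratory genes 21 of 26 were at strong boundaries. Of all genes at several-start boundaries, 1107 of 1598 were. Housekeeping genes are known to lie in gene-rich surroundings, and the part of gene density in these shares was not tested.

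The 23 boundaries of ribosomal protein genes ran from 0.253 to 2.32. Divergent pairs made up 8 of them, convergent 2, same-strand 5, and 8 had 3 or more starts. The strongest were those of Rps24, Rps23 and Rpl37, which is divergent from Card6 (2.04). Rps2 shared its window with the complex I gene Ndufb10, Rnf151 and Rpl3l, a window of 4 starts that scored 1.36. Rps27 with Rab13 (0.253) and Rps10 with the read-through record RPS10-NUDT3 (0.318) were weak.

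The 25 boundaries of respiratory genes ran from 0.276 to 1.71, with 10 divergent pairs, 3 convergent, 3 same-strand and 9 windows of 3 or more starts. The highest was at Atp5o, where both starts are records of that one symbol, 1 of them 243 kb long, so that the pair is one of annotation. Atp5f1, convergent with Wdr77, scored 1.64, and the complex I gene Ndufs1, convergent with the elongation factor gene Eef1b2, scored 1.52. Uqcrh of complex III lay divergent from Lrrc41 (0.936), and Sdhd of complex II divergent from Timm8b, an import chaperone gene of mitochondria (0.718). Cox8c with Btbd7 was the lowest of those on the list, at 0.276.

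**Figure D5:**
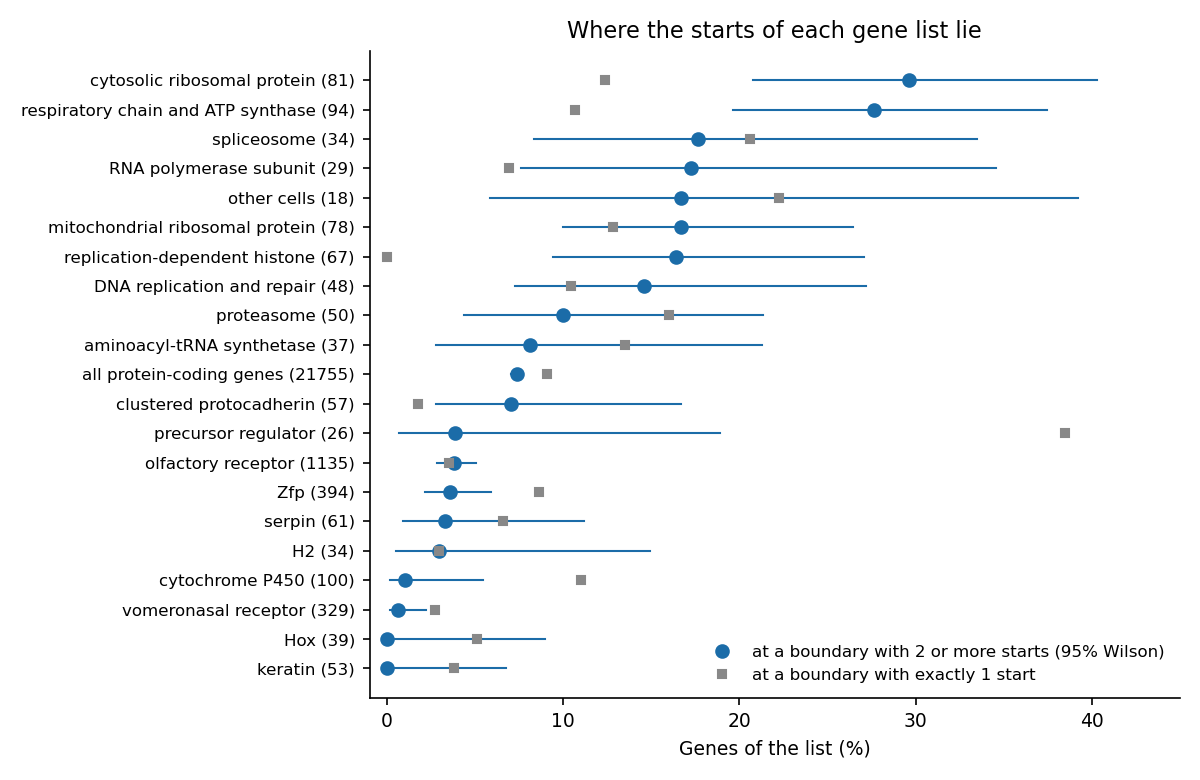
Percentage of the genes of each list that start at a boundary with 2 or more starts (circles, 95% Wilson intervals) or with exactly 1 start (squares), with the number of genes in parentheses. Ribosomal protein and respiratory genes lie at 29.6 and 27.7%, against 7.34% of all protein-coding genes. Replication-dependent histone genes are at 16.4% and 0, precursor regulators at 3.85% and 38.5%, and markers of other cells at 16.7% and 22.2%.

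Other lists of basal machinery gave smaller counts. Mitochondrial ribosomal protein genes were at several-start boundaries in 13 of 78 cases (16.7%, 10.0 to 26.5%), with Mrps27 (1.81) and Mrps30 (1.69) highest. Spliceosome genes were there in 6 of 34 (17.6%), with Snrpg at 1.58, Snrpa1 at 1.56 and Snrpd3 at 1.41. RNA polymerase subunit genes were there in 5 of 29 (17.2%), among them the RNA polymerase III genes Polr3a (2.32) and Polr3d (0.724). Genes of DNA replication and repair gave 7 of 48, with Rad51b at 1.13 and Fancg at 1.10. Proteasome genes gave 5 of 50, with the assembly chaperone gene Psmg3 at 1.82, and aminoacyl-tRNA synthetase genes 3 of 37. The lower Wilson bounds of the polymerase, spliceosome and mitochondrial ribosomal lists were above 7.34% (7.60, 8.35 and 10.01%), and those of the replication, proteasome and synthetase lists were below it.

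Tandem arrays behaved unevenly. The 11 histone genes (of 67) lay at 3 boundaries of chromosome 13, with scores of 1.41, 1.38 and 0.643 and 4, 4 and 5 starts, and 0 histone genes lay at boundaries with 1 start. Olfactory receptor genes, which these precursors are about to choose among, contributed 43 of 1135 (3.79%, 2.83 to 5.06%) at 24 boundaries, 17 of them same-strand pairs. Their boundaries had a median score of 0.318, and 7 of 24 were strong, against 494 of all 715, though Olfr543 to Olfr545 stood at 2.35. Zfp genes numbered 14 of 394 (3.55%, median score 0.437). Vomeronasal receptor genes numbered 2 of 329, cytochrome P450 genes 1 of 100 (Cyp39a1, 1.13) and serpin genes 2 of 61. Clustered protocadherin genes numbered 4 of 57, all at a single weak boundary (0.203). Hox genes (0 of 39) and keratin genes (0 of 53) were not found at any, which allows shares of up to 8.97 and 6.76% by the Wilson interval.

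Of 26 regulators of the precursors, 1 was at a several-start boundary (3.85%, Wilson 0.682 to 18.9%), an interval that includes the 7.34% of all genes. At boundaries with 1 start there were 10 of 26 (38.5%), against 9.07% of all genes. The one was Cdkn1c, which encodes the cyclin-dependent kinase inhibitor p57, divergent from the transporter gene Slc22a18 at a boundary of 0.983. Of 18 markers of other cells of the epithelium, 3 (16.7%, Wilson 5.84 to 39.2%) were at several-start boundaries. They were the macrophage gene Cd68 in a window with Mpdu1, Eif4a1 and Senp3 (0.995), the water channel gene Aqp5 (0.241) and Aif1 (0.238). At boundaries with 1 start there were 4 of these 18 (22.2%), also above the 9.07% of all genes. No interval was computed for the shares at 1 start.

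The genes at these boundaries were short and their promoters CpG-rich. Their median length was 13.2 kb, against 26.9 kb for genes at boundaries with 1 start and 17.4 kb for all protein-coding genes. Choosing windows by 2 or more starts favours closely packed genes. Gene length over all bins with 2 or more starts was not measured, so the difference cannot be assigned to boundaries. A promoter, taken as the 250 bases before and 50 after the start in GRCm38.p6, was called CpG-rich at a GC content of at least 50% and an observed over expected CpG ratio of at least 0.6. This held for 58.2% of the 1598 starts, 56.9% of starts at boundaries with 1 start and 41.6% of all. It held for 84.9% of divergent starts within 1 kb of each other at boundaries, for 81.6% of such starts over the genome and for 37.4% of starts in same-strand pairs at boundaries. Bins with exactly 2 starts were boundaries in 5.36% of cases when both promoters were CpG-rich, 5.18% when 1 was and 2.26% when neither was. With both CpG-rich the share was 5.48% (4.695 to 6.38%) for divergent, 6.35% (4.95 to 8.125%) for convergent and 3.49% (2.34 to 5.18%) for same-strand pairs. With neither it was 2.775% (2.11 to 3.64%), 2.16% (1.37 to 3.39%) and 1.98% (1.53 to 2.55%). The intervals of the 3 orientations overlap in both cases. Among boundaries at several starts, the median score was 0.760 with 2 or more CpG-rich promoters (n = 320), 0.668 with 1 (n = 251) and 0.655 with 0 (n = 144). The log2 difference between the first set and the rest was 0.073 (-0.098 to 0.24), within its error. The first set lay 0.14 (0.041 to 0.24) above boundaries with exactly 1 start that was CpG-rich. Boundaries at several starts without CpG-rich promoters lay 0.044 (-0.15 to 0.24) above those with 1 start that was not CpG-rich, which is not apart from 0.

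Of 11 short motifs searched as exact letters on both strands of these promoters, 2 were more frequent than at boundaries with 1 start by intervals that did not overlap, and both are known from housekeeping promoters. CCGGAAGT, bound by ETS factors, was in 8.82% (Wilson 7.53 to 10.3%) of promoters at several-start boundaries, 5.32% (4.42 to 6.41%) at boundaries with 1 start and 4.73% of all 21755. AAGATGGC, bound by YY1, was in 5.69% (4.66 to 6.94%), 3.04% (2.37 to 3.90%) and 2.93%. GCGCATGC, bound by NRF1, was in 6.38% (5.29 to 7.69%), 4.72% (3.87 to 5.74%) and 3.402%, where the first 2 intervals overlap. In back-to-back pairs within 1 kb at boundaries the shares of these 3 motifs were 15.5, 8.88 and 10.5%, and in all such pairs of the genome 13.01, 8.17 and 6.81%. The promoter windows of such pairs overlap in part, so that 1 match can count for both genes, and close pairs are more frequent at these boundaries.

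For the other 8 motifs too, the intervals at boundaries with several starts and with 1 start overlapped. TATAAA was in 8.39% of promoters at several-start boundaries and 12.7% of all. CAGATG, an E-box bound by proneural factors, was in 13.5% and 15.3%, and TCCCNNGGG, bound by EBF factors, in 7.07% and 7.79%. GGGCGG, the GC box, was in 52.1% and 43.4%, and in 54.9% at boundaries with 1 start. CCAAT was in 36.8% and 38.9%, TGACGTCA (CRE) in 3.07% and 2.45%, CTACAANTC (ZNF143) in 3.07% and 1.99% (2.03% at boundaries with 1 start), and CTCGCGAG (Kaiso) in 2.07% and 1.22%. For Kaiso the share in back-to-back pairs within 1 kb was 6.25% at boundaries (4.04 to 9.56%) and 3.75% over the genome (2.89 to 4.84%), with intervals that overlap. A match is a run of letters and not a bound site.

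The CTCF core, a consensus of 12 bases searched on both strands, was no more frequent here than at other boundaries. It lay in the interval at 47 of 715 (6.57%, Wilson 4.98 to 8.63%), at 6.93% (6.37 to 7.55%) of the others and in 2.40% of all bins. With the core, boundaries at several starts had a median score of 0.801, and without it 0.702. For the other boundaries the medians were 0.713 and 0.498. The 4 matches printed are those in the boundaries of highest score that hold one, with 20 bases on each side and the core in capitals, read on the strand of the match in GRCm38.p6.

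Gm37419 and Bcl6, chr16:23984343-23984394, plus strand: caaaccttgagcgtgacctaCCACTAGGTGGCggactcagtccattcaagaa
Hepacam2 and Vps50, chr6:3496368-3496419, minus strand: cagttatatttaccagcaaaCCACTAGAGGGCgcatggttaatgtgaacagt
Gdf7 and Hs1bp3, chr12:8313329-8313380, plus strand: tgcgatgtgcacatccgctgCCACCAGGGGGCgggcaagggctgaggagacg
2810459M11Rik and Psmd1, chr1:86059609-86059660, plus strand: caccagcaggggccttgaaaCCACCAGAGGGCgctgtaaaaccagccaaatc

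The match at Bcl6 (score 2.43) was 1.87 kb from the centre of the interval, that at Hepacam2 and Vps50 (1.92) 1.11 kb to the left of it, that at Gdf7, a BMP ligand gene, and Hs1bp3 (1.68) 0.855 kb from it, and that at the proteasome gene Psmd1 (1.44) 2.13 kb from it. The boundary of Hepacam2 and Vps50 thus held both a core match and the stretch between back-to-back starts printed above, 84 bases from start to start. The stronger boundaries of Sfi1 with Eif4enif1 and of Polr3a with Rps24 held 0 exact matches in their intervals, which says only that these letters were not there.

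Noncoding genes were counted in the same windows. A long noncoding gene started in 120 of the 715 windows (16.8%), against 21.4% of those with 1 protein-coding start and 8.54% of those with 0. The median score was 0.740 with such a gene and 0.702 without. A tRNA gene lay in 11 windows (1.54%), against 26 (0.365%) of the other 7126, and the median scores with and without one were 0.715 and 0.713. Of the 26, 10 were windows with 1 protein-coding start (0.507% of those). The counts are small, and the share over all bins with 2 or more starts was not counted.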

How the data were processed

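In situ Hi-C of immediate neuronal precursors was deposited as 1 list of boundaries called on contacts combined from 2 biological replicates, per the series' design text, on GRCm38, per the submitters' processing notes. The authors deposited a class and a score for each 5 kb boundary. Which program called boundaries, with what window and cutoffs, is not given in the sources used here, nor is the depth. The score was used only to describe and compare boundaries within this list. Contact matrices were not analysed here.

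Genes came from GENCODE M21, sequence from GRCm38.p6 and tRNA genes from the RefSeq table. Alternative promoters were not considered, and strain variants were not examined. Pairs were divergent when the left start was on the reverse and the right on the forward strand, convergent when opposite, and otherwise on the same strand. Log2 score, strong class and log2 mean distance to both neighbours were fitted by least squares on class and chromosome, with standard errors clustered by chromosome (Python 3.11.15, numpy 2.4.6, scipy 1.17.1). The fit was tested on simulated data. No p-value is given. Gene lists were written by symbol. Members and lists were chosen with earlier results of these data known. Genes were named by rule: the 8 highest scores, the 4 highest of each orientation, the 3 with the most starts, the 3 lowest, up to 3 of each list and all precursor regulators. A gene that this rule names is not reported here. The remaining members of the ribosomal, respiratory and histone lists, and the genes sharing a window with a named gene, were named after their values were seen. Alternatives were other windows, gene sets, chromosomes, covariates, comparison sets and measures.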

Additional observations from a re-analysis of the deposited data

How the results depend on the processing

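Of 62 alternative settings, 54 kept direction and side of 0 (or, for shares, stayed within the interval). Those that did not mainly concern divergent against same-strand pairs, where the log2 score difference of 0.21 became 0.045 with a window of 5 kb, 0.054 with 20 kb, 0.18 with same-strand starts within 1 kb counted once, 0.12 without tandem families and 0.015 among strong boundaries, all with intervals that include 0, and -0.076 with 0 kb. The log2 spacing difference of -0.31 became -0.020 with surrounding starts, GC content and CTCF core as covariates, and the 4.05% of bins became 5.59% with a window of 5 kb. A setting counted as kept could still shrink a difference. With surrounding starts, GC content and CTCF core as covariates, the log2 score difference of 0.30 became 0.076. The strong share difference of 16.6 points became 4.19. The covariate of surrounding starts was added after seeing the data. Merging boundaries within 50 kb, which is counted among the 54, could change nothing, because the closest lie 60 kb apart. No paired analysis was possible because both replicates were combined before boundaries were called. For the same reason no replicate could be left out, and the effect of depth on the list is unknown. Intervals over chromosomes measure the spread between chromosomes, not between animals.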
